A study of Mus musculus with 8 samples.

Results

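The collagens of cartilage, types II, IX, X and XI, were followed through embryonic forelimb development in single cells. The 7 genes that encode their chains, *Col2a1*, *Col9a1*, *Col9a2*, *Col9a3*, *Col10a1*, *Col11a1* and *Col11a2*, were taken by symbol from the 28001 features counted in each of 8 libraries. All 7 had UMIs (unique molecular identifiers, each marking a captured transcript) in at least 1 library. The libraries came from C57BL/6J mouse forelimbs, and cells were read with droplet kits that count the 3′ ends of polyadenylated RNA.

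In 6 libraries the cells were tdTomato+ cells purified by FACS, 1 each at E11.5, E12.5 and E13.5, 1 at E14.5, and 1 for each of the proximal and distal limb segments at E16.5. The other 2 libraries, replicates 1 and 2, held cells of the whole forelimb at E11.5. The embryos of the sorted groups were labelled Hic1 CreERT2/CreERT2; Rosa26 LSL-tdTomato/tdTomato, and the methods give the whole limb groups the same alleles, so that every group carried a Cre cassette at *Hic1* and none had only unaltered *Hic1*. All dams were gavaged with 7.5 mg of tamoxifen at embryonic day 10. The reporter therefore marks cells in which the *Hic1* locus was active at about that time, together with their descendants. Cells of other origins should be missing from the sorted libraries. The authors removed small clusters of contaminating epithelial cells from the E16.5 data, but such cells were kept here. Of the kept cells, 941 proximal (8.47%) and 66 distal ones (0.781%) were epithelial-like. Limbs of several embryos were pooled, and cells with surface markers of blood or endothelium were excluded. The E16.5 proximal segment held the distal stylopod, the proximal zeugopod and the elbow, without the autopod, which was in the distal segment with the distal zeugopod. Each sorted group was 1 library, so differences between sorted groups have no replicate check, and the intervals given for them are exact 95% intervals that cover counting error only.

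Cells with at least 3000 UMIs and at most 10% mitochondrial UMIs were kept, between 3165 and 11109 per library. The kept cells held between 31500092 and 234893903 UMIs per library, with medians of 6788 to 18473 UMIs per cell. *Hic1* was at 22.0 to 38.0 CPM (UMIs of a gene scaled to the same total in each library) in the sorted libraries, against 0.702 and 0.741 CPM in whole limb replicates 1 and 2. The tdTomato transcript was at 427 to 1341 CPM in the sorted libraries, against 3.88 and 4.21 CPM in the whole limb, whose labels give both reporter-positive and reporter-negative cells. The v2 version of the reagent kit was used for the E11.5 to E13.5 and whole limb libraries and v3 for the 3 later ones, and the enzymes used to free the cells changed between E12.5 and E13.5. At those 2 steps stage cannot be told apart from the kit or the dissociation. Any pair of libraries shared at most 48 cell barcodes, and at most 1.04% of the cells of the smaller library.

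Collagen II, assembled from *Col2a1* chains alone, makes up the fibrils of cartilage. Collagen XI, from *Col11a1*, *Col11a2* and a chain that *Col2a1* also supplies, lies within these fibrils and limits their width. Collagen IX, from *Col9a1*, *Col9a2* and *Col9a3*, decorates their surface and links them to the surrounding matrix. Collagen X, a network-forming collagen assembled from *Col10a1* chains, is the product of hypertrophic chondrocytes, the enlarged cells that precede bone in the growth plate. In the limb, mesenchymal cells with SOX9 condense and, with SOX5 and SOX6 as well, become chondrocytes that make collagens II, IX and XI. Collagen X follows only in the cells that mature to hypertrophy.

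In GRCm38 the genes lie on 7 chromosomes. *Col2a1* (ENSMUSG00000022483) spans chr15:97975602-98004695 on the minus strand. The other members are on plus strands, with *Col9a1* (ENSMUSG00000026147) at chr1:24177610-24252684, *Col9a2* (ENSMUSG00000028626) at chr4:121039385-121055322 and *Col9a3* (ENSMUSG00000027570) at chr2:180597790-180622189. *Col10a1* (ENSMUSG00000039462), the shortest of them, spans 7105 bases at chr10:34389981-34397085. *Col11a1* (ENSMUSG00000027966), at chr3:114030540-114220718, spans 190179 bases, and *Col11a2* (ENSMUSG00000024330) lies at chr17:34039437-34066685.

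The 250 bases before the transcription start are shown for 4 members chosen for what is described below, namely *Col9a1*, which was higher in whole limb than in sorted cells at E11.5 and has 2 starts in RefSeq, *Col10a1*, which was concentrated in very few cells, and the 2 collagen XI genes, whose onsets differed. The sequences are those of RefSeq on GRCm38.p6, plus strand, at chr1:24177360-24177609, chr1:24194953-24195186 (the second start of *Col9a1*, 234 bases because an exon lies before it), chr10:34389731-34389980, chr3:114030290-114030539 and chr17:34038888-34039137. Capitals mark matches, on either strand, to 4 words of 6 bases. The words were AACAAT, bound by SOX factors, the related SOX word ACAAAG, the RUNX word with the letters TGTGGT, and the TATA box, searched for as TATAAA.
*Col9a1*, first start: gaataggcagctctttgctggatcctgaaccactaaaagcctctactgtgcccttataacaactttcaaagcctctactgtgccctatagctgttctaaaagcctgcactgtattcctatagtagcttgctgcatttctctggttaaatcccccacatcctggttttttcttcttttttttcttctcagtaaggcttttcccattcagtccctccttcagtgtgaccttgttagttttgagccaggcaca
*Col9a1*, second start: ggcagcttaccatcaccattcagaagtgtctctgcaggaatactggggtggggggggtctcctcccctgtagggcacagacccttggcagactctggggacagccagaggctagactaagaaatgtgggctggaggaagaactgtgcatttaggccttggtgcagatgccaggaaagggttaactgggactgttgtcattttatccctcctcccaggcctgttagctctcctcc
*Col10a1*: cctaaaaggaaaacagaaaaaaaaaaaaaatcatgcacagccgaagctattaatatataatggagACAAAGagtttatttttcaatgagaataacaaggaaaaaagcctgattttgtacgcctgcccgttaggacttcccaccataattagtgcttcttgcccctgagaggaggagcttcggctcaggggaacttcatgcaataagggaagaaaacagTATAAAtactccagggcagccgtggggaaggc
*Col11a1*: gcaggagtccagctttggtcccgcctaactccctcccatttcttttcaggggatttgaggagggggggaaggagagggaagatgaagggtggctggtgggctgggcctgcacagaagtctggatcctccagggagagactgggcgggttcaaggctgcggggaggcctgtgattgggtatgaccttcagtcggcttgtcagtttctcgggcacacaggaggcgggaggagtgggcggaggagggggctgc
*Col11a2*: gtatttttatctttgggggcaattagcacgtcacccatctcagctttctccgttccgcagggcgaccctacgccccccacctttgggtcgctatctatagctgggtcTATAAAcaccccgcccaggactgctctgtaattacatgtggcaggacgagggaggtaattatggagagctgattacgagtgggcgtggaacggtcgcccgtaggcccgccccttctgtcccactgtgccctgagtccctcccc

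In *Col10a1* the ACAAAG word began 185 bases and TATAAA 32 bases before the start, and in *Col11a2* TATAAA began 143 bases before the RefSeq start. Of 32851 promoter windows of this length, 9.42% held AACAAT, 16.5% held the other SOX word, 14.05% the RUNX word and 12.4% the TATA box, and 41.3% held at least 1 of the 4. The GC content was 62.4% before *Col11a1*, 57.6% before *Col11a2* and 41.6% before *Col10a1*, and 43.6% and 55.6% before the first and second starts of *Col9a1*. Counts of 3′ ends do not show which *Col9a1* start was used. RefSeq entries were matched for 5 of the 7 members, all but *Col2a1* and *Col9a3*.

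The first comparison asked in what order the genes appeared in tdTomato+ cells between E11.5 and E16.5. *Col2a1*, *Col11a1* and the collagen IX chains *Col9a1* and *Col9a2* were already well above 0 at E11.5, *Col9a3* and *Col11a2* were low until E13.5, and *Col10a1* had no UMI before E14.5. All 7 genes were at their highest in the E16.5 proximal library, where 1 cell held most of the *Col10a1* UMIs. Because the whole cell suspension of a library is summed, more cells of a type and more RNA per cell cannot be told apart in these levels.

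*Col2a1* was at 192 (187 to 197), 191 (187 to 195) and 371 CPM (366 to 377) in the E11.5, E12.5 and E13.5 libraries. It was then at 373 CPM (370 to 377) at E14.5, and at 1765 (1759 to 1770) and 477 (474 to 480) in the proximal and distal segments of E16.5. It thus had the same level, within counting error, in the first pair of libraries and again at E13.5 and E14.5. With every cell thinned to 3000 UMIs, so that libraries of unlike depth can be compared, 38.1%, 31.8% and 39.3% of cells had a *Col2a1* UMI in the first 3 libraries, 22.6% at E14.5, and 18.9% and 11.8% in the proximal and distal segments. Among the time-course libraries the share of positive cells was thus lowest in the proximal segment, where the summed level was highest. The tenth of cells with the most *Col2a1*, which is 10% of each library, held 49.3% of its UMIs at E11.5 and 57.4% at E13.5, then 88.6% at E14.5 and 98.1% in the E16.5 proximal library. The largest number of *Col2a1* UMIs in 1 cell was 33 at E11.5 and 1559 at E16.5 proximal.

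Among the collagen IX chains, *Col9a1* was at 48.6 (46.2 to 51.1), 64.9 and 172 CPM (168 to 176) in the E11.5, E12.5 and E13.5 libraries, 69.3 (67.9 to 70.7) at E14.5, and 367 and 116 in the proximal and distal segments. It was the member with the deepest trough at E14.5. *Col9a2* was at 66.8, 94.6 and 188 CPM in the first 3 libraries, 120 (118 to 122) at E14.5, and 351 and 95.6 in the segments. *Col9a3* was at 16.5, 28.7 and 180.4 CPM in the first 3 libraries, 169 at E14.5, and 776 and 188 in the segments. The 3 chains of 1 collagen thus took different courses, with *Col9a3* changing most over the stages and *Col9a2* least.

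*Col11a1* was at 59.7 (57.1 to 62.5), 85.7 and 229 CPM (225 to 234) in the E11.5, E12.5 and E13.5 libraries, 259 (256 to 262) at E14.5, and 725 (722 to 728) and 477 (474 to 481) in the proximal and distal segments. Its share of positive cells at 3000 UMIs stayed between 31.8% and 36.5% from E13.5 on, after 15.7% at E11.5 and 19.6% at E12.5. *Col11a2* was at 2.10 (1.62 to 2.67), 2.17 (1.76 to 2.65) and 15.3 CPM (14.2 to 16.5) in the same first 3 libraries, 20.0 (19.3 to 20.8) at E14.5, and 155 and 41.9 in the segments. *Col10a1* had 0 UMIs at E11.5, E12.5 and E13.5, which allows at most 0.117, 0.0834 and 0.0813 CPM. It had 40 UMIs (0.299 CPM) at E14.5, 1310 UMIs (5.58 CPM) in the proximal and 32 UMIs (0.201 CPM) in the distal segment.

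**Figure D1:**
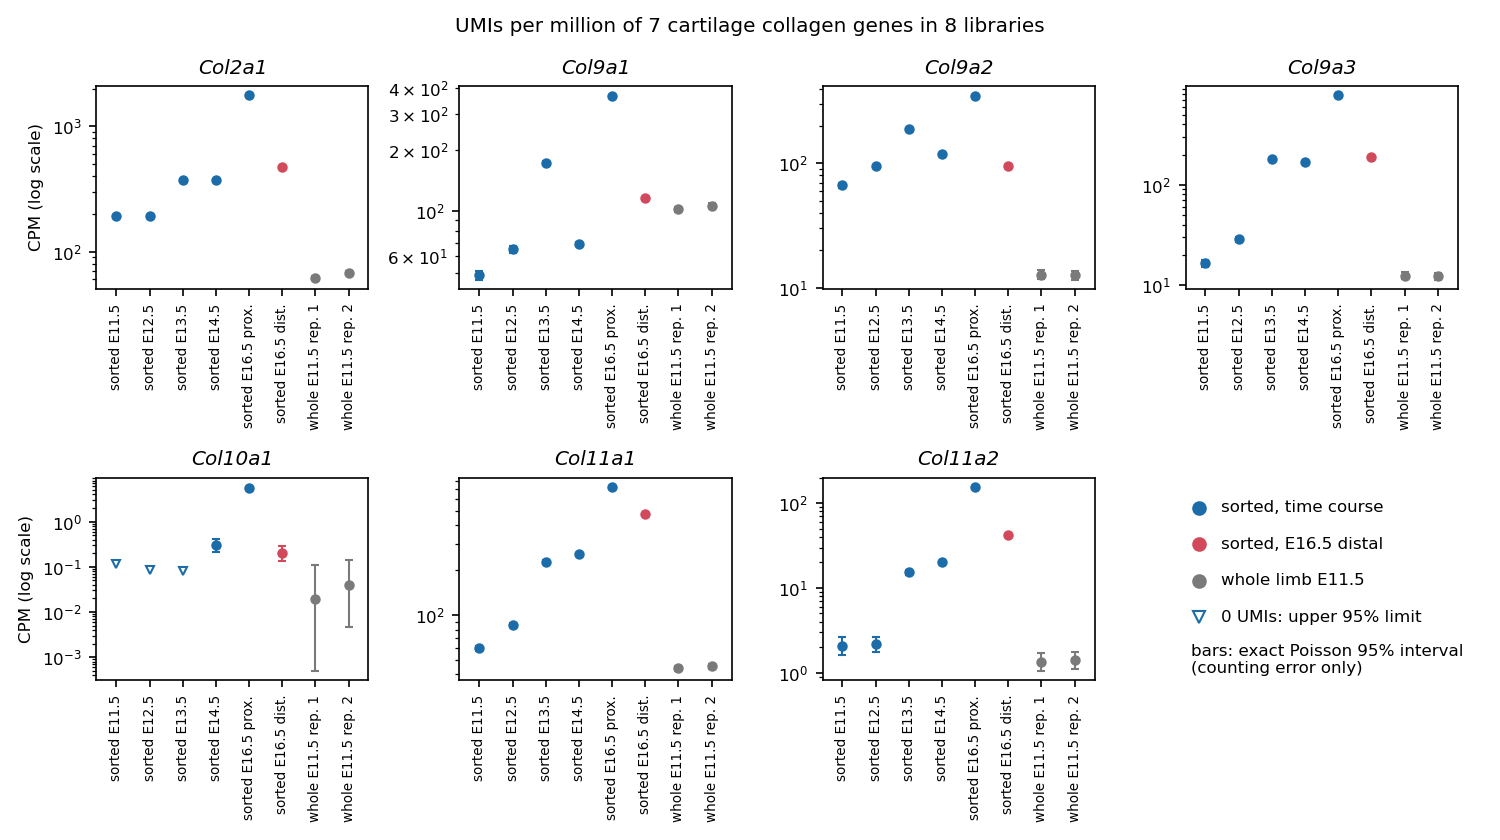
CPM of the 7 collagen genes (log axis) in the 8 libraries, with exact 95% Poisson intervals that cover counting error only. *Col2a1* and *Col9a1* to *Col9a3* reach their highest values at E16.5 proximal. In the sorted libraries before E14.5 *Col10a1* has only upper limits (open triangles). Of the other 6 genes *Col9a1* is the one that stands higher in both whole limb libraries than in the sorted E11.5 library.

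The first library in which a gene reached 10% of its highest level of the time course (E11.5 to E14.5 and E16.5 proximal) was taken as its onset. That highest level was in the E16.5 proximal segment for every member, so the onsets depend on this part of the limb. By this measure the order was *Col2a1* (10.9% of its maximum), *Col9a1* (13.2%) and *Col9a2* (19.0%) at E11.5, *Col11a1* at E12.5 (11.8%), *Col9a3* at E13.5 (23.2%), *Col11a2* at E14.5 (12.9%) and *Col10a1* at E16.5 proximal. The members nearest to the limit were *Col2a1*, just inside it at E11.5, *Col11a1*, which had 8.24% at E11.5, and *Col11a2*, which had 9.88% at E13.5. The *Col10a1* onset rests on 1 cell that holds 1172 of the 1310 proximal UMIs. Without that cell the proximal level was 0.588 CPM, and the 0.299 CPM of E14.5 passes the limit. At a limit of 25% *Col9a2* came first, at E12.5, followed by *Col9a1* and *Col11a1* at E13.5 and the other 4 at E16.5 proximal. At a limit of 1% every member but *Col10a1*, which appeared at E14.5, was present at E11.5. With the limit of 10% set on the share of positive cells at 3000 UMIs, *Col11a2* was at E13.5, *Col10a1* at E14.5 and the others at E11.5.

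Between E11.5 and E12.5 none of the 5 members that reached 10 CPM in the higher of both libraries was 2-fold higher or lower, where 2.2% of 8753 genes at that level were higher and 1.06% lower. *Col9a3*, the gene of the third collagen IX chain, had the largest ratio, 1.74 (1.57 to 1.93). Between E12.5 and E13.5, 4 of 6 members were at least 2-fold higher, against 1.58% of 8727 genes, and none was lower (1.79% of genes). These were *Col11a2* (7.04-fold, 5.68 to 8.81), *Col9a3* (6.29-fold, 5.93 to 6.68), *Col11a1* (2.67-fold) and *Col9a1* (2.65-fold), while *Col2a1* was 1.94-fold and *Col9a2* 1.98-fold higher, just under the limit.

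Between E13.5 and E14.5 no member was 2-fold higher (4.54% of 8826 genes were), and *Col9a1* alone was lower, by 2.49-fold (5.77% of genes). *Col9a2* was 1.56-fold lower, and *Col2a1* had a ratio of 1.01 (0.988 to 1.02). From E14.5 to E16.5 proximal all 6 members at 10 CPM or more were at least 2-fold higher, beside 7.01% of 8690 genes, and none was lower (6.94% of genes). The ratios ran from 2.80 for *Col11a1* and 2.93 for *Col9a2* to 7.73 for *Col11a2*, and *Col10a1*, below 10 CPM, had a ratio of 18.7 (13.6 to 26.3), which 1 cell decided, since the proximal level without it was 0.588 CPM against 0.299 at E14.5. Over the whole interval from E11.5 to E16.5 proximal the same 6 genes were higher (13.3% of 9326 genes were, and 30.3% were lower), by 5.26-fold for *Col9a2*, 7.55-fold for *Col9a1*, 9.20-fold for *Col2a1*, 12.1-fold for *Col11a1*, 47.1-fold for *Col9a3* and 73.9-fold (58.0 to 95.5) for *Col11a2*. The libraries up to E14.5 came from whole forelimbs and the proximal one from a segment. Stage therefore cannot be told apart from limb part in comparisons with the proximal library. In the E16.5 distal library *Col9a2* was lower than at E14.5 (95.6 against 120 CPM). There *Col9a3* was at 188 against 169 CPM, *Col2a1* at 477 against 373, *Col9a1* at 116 against 69.3, *Col11a1* at 477 against 259 and *Col11a2* at 41.9 against 20.0.

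Cells with cartilage markers were counted beside these levels. Of 12 chondrocyte markers that include no member (among them *Sox9*, the aggrecan gene *Acan*, the matrilin genes *Matn1*, *Matn3* and *Matn4*, and *Hapln1*, which encodes the protein that links aggrecan to hyaluronan), at least 3 were detected at 3000 UMIs in 32 (1.01%), 157 (3.33%) and 908 cells (14.8%) of the E11.5, E12.5 and E13.5 libraries. The corresponding numbers were 513 (6.12%) at E14.5, and 1100 (9.90%) and 449 (5.32%) in the proximal and distal segments. At least 6 were detected in 0 cells at E11.5 and E12.5, in 87 at E13.5 and 196 at E14.5, and in 859 proximal and 239 distal cells. The share with at least 3 markers did not follow the levels throughout. It was lower at E14.5 than at E13.5, as *Col9a1*, *Col9a2* and *Col9a3* were, but *Col2a1*, *Col11a1* and *Col11a2* were not. It was also lower in the proximal segment than at E13.5, although all 6 genes were higher in that segment.

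Within the cells with at least 3 markers, with every cell thinned to 3000 UMIs, *Col2a1* was at 771, 994 and 1631 CPM in the E11.5, E12.5 and E13.5 libraries, 5064 at E14.5, and 18223 and 7883 in the proximal and distal segments. In these cells *Col2a1* was 3.10-fold (2.99 to 3.22) higher at E14.5 than at E13.5, although the library totals were alike. *Col9a1* was at 208, 367, 795, 839 and 3759 CPM in the same order of time-course stages, with an E14.5 to E13.5 ratio of 1.06 (0.984 to 1.13). Cells with 6 or more markers made up a larger part of these cells at E14.5, and within each bin *Col9a1* was lower at E14.5 than at E13.5, at 460.6 against 693.5 CPM with 3 to 5 markers and at 1451 against 1751 with 6 or more. *Col9a3* reached 2264 CPM at E14.5 after 984 at E13.5, and *Col11a2* 263 after 90.3. From E14.5 to E16.5 proximal all 6 genes were higher within the marker-bearing cells, by 3.23-fold (*Col9a2*) to 5.75-fold (*Col11a2*). Cells with 6 or more markers were 87 of the 908 at E13.5, 196 of 513 at E14.5 and 859 of 1100 in the proximal segment. Except for *Col9a1* at E14.5, these ratios do not separate a shift between bins from a change within them.

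Cells with fewer than 3 markers showed opposite courses for *Col2a1* and *Col11a1*. *Col2a1* was at 217, 184, 193, 108 and 52.7 CPM in them over the 5 stages of the time course. *Col11a1* was at 62.9, 79.3, 145, 178 and 186 CPM in the same order, and at 263 in the E16.5 distal library. Accordingly the marker-bearing cells held 15.7% of all *Col2a1* UMIs at E12.5 and 59.5% at E13.5, then 75.4% at E14.5 and 97.4% in the proximal segment, and for *Col11a1* 13.6%, 49.6%, 37.1% and 77.9%. At E16.5 proximal they held 97.0% of *Col9a1*, 96.2% of *Col9a3*, 94.1% of *Col11a2* and 90.1% of *Col9a2* UMIs. Each of the 6 genes was higher in cells with more markers at every stage, except *Col11a2* at E11.5, which had no UMI in the 32 cells with 3 or more. At E16.5 proximal *Col2a1* was at 34.6 CPM in cells with no marker, 127 with 1 or 2, 3665 with 3 to 5 and 22307 with at least 6, and at E11.5 it was at 119, 312 and 771 CPM in the first 3 of these bins.

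**Figure D2:**
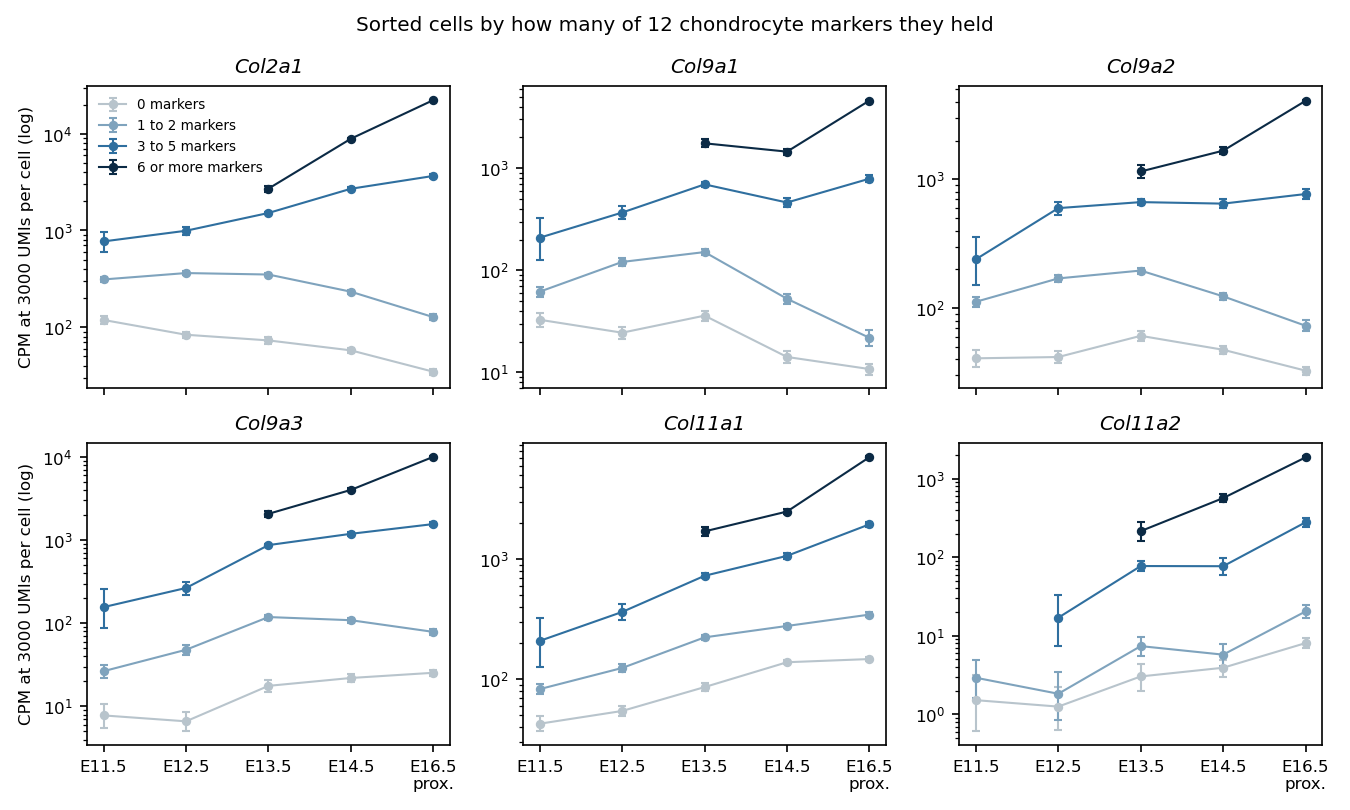
CPM at 3000 UMIs per cell (log axis) of 6 collagen genes over the 5 stages of the time course, in cells binned by the number of 12 chondrocyte markers detected at 3000 UMIs, with exact 95% Poisson intervals. Levels are higher with each bin except for *Col11a2* at E11.5, and the course in cells without any marker differs between the genes, with *Col2a1* at 119 CPM at E11.5 and 34.6 at E16.5 proximal against 42.5 and 147 for *Col11a1*.

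The next comparison asked which cells carried the genes. Cells were clustered without the 7 collagen genes, and clusters were named from fixed markers with the ending "-like". At E11.5, E12.5 and E13.5 no cluster was chondrocyte-like. At E13.5 the highest levels were in 1381 cells (22.6% of the library) of a cluster led by *Wwp2*, *Matn4*, *Sox6* and *Scrg1*. It had 5 of 8 perichondrial and 3 of 12 chondrocyte markers, with the chondrocyte marker *Matn4* among its leading genes, and is called by those genes here. Its E13.5 cells had *Col2a1* at 1215 CPM, *Col9a1* at 573, *Col9a2* at 597, *Col9a3* at 688, *Col11a1* at 616 and *Col11a2* at 54.4. *Col2a1* was detected in 88.3% of them at 3000 UMIs and *Col11a2* in 13.8%. The 3532 cells of the library in an unnamed cluster had 76.8 CPM of *Col2a1* and 93.0 of *Col11a1*.

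At E14.5 the 6 genes were again concentrated in 1 cluster, of 2022 cells (24.1%), led by *Pcp4*, *Otor*, *Six2*, *Mia* and *Matn4*. It had 6 of 9 tenocyte and 3 of 12 chondrocyte markers, with the chondrocyte marker *Matn4* among its leading genes, and stayed unnamed. *Col2a1* was at 1208 CPM in these 2022 cells, *Col9a3* at 529, *Col11a1* at 685 and *Col11a2* at 65.5. At a finer resolution 583 cells of this library (6.96%) were chondrocyte-like, nearly all in a cluster of 581 cells led by *Mia*, *Matn4*, *Six2* and *Otor* with 9 of the 12 chondrocyte markers, beside a tenocyte-like cluster of 517 cells. Fibrogenic progenitor-like cells of the same library (2041 cells) had 39.7 CPM of *Col2a1*, 10.1 of *Col9a3* and 88.6 of *Col11a1*. Epithelial-like cells, which should not make these collagens, were 65 cells with 4.14 CPM of *Col2a1* and 8.28 of *Col11a1*.

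At E16.5 the 2 segments were clustered on their own. Chondrocyte-like cells (1054 proximal and 240 distal) had the highest level of each of the 6 genes in both segments. In the proximal library they carried *Col2a1* at 19888 CPM, *Col9a1* at 4124, *Col9a2* at 3680, *Col9a3* at 8646, *Col11a1* at 6612 and *Col11a2* at 1694, and each of these genes was detected in 85.8% to 99.1% of them at 3000 UMIs. Over the alternative ways to define these cells they held 91.7% to 97.4% of the proximal *Col2a1* UMIs, 91.9% to 97.0% of *Col9a1*, 85.2% to 90.1% of *Col9a2*, 91.2% to 96.2% of *Col9a3*, 89.8% to 94.1% of *Col11a2* and 74.5% to 78.2% of *Col11a1*. *Col11a1* was thus the gene with the largest part of its transcripts elsewhere. In the distal library the number of chondrocyte-like cells depended on the clustering. The joint clustering of the 6 sorted libraries put 32 distal cells in the class, which held 6.06% of the distal *Col11a1* UMIs, a finer resolution put 397 cells there and the clustering of the segments alone 240. Outside the joint clustering at its main resolution, the chondrocyte-like cells held 40.4% to 47.6% of the distal *Col11a1* UMIs and 85.3% to 92.1% of those of *Col2a1*.

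Epithelial-like cells, which should not make these collagens, were the reference for levels outside cartilage. In the proximal library these 941 cells (median 37445 UMIs, against 17298.5 in chondrocyte-like cells) had 113 CPM of *Col2a1*, 21.1 of *Col9a1*, 24.3 of *Col9a2*, 54.1 of *Col9a3*, 51.4 of *Col11a1* and 10.3 of *Col11a2*, with a *Col2a1* UMI in 6.59% of cells and a *Col11a1* UMI in 6.80% at 3000 UMIs. This is not a level common to all classes, since *Col2a1* was lower in fibroblast-like (45.5 CPM), dermal fibroblast-like (30.7) and muscle-led cells (29.3). A class is called above the epithelial-like cells only where both its CPM and its share of positive cells were higher.

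Tenocyte-like cells (733 proximal cells in a cluster led by *Tnmd*, *Cilp* and *Scx*, genes of tendon) were above the epithelial-like cells for *Col11a1* (865 CPM, detected in 78.3%), *Col2a1* (220 CPM, 32.2%), *Col9a2* (88.5), *Col9a3* (86.4) and *Col11a2* (69.3), but not for *Col9a1* (19.9). Fibrogenic progenitor-like cells were above them for *Col11a1* (239 CPM) and *Col9a2* (35.6), while their *Col2a1* was lower in CPM (48.3) but found in more cells (9.07%). Most other classes were also above them for *Col11a1* and *Col9a2*, namely unnamed (408 and 97.0 CPM), mitotic (181 and 43.1), fibroblast-like (104 and 43.9) and muscle-led cells (78.5 and 40.7). Pericyte-like cells were so for *Col11a1* (109 CPM) but not for *Col9a2*. Unnamed cells were also above the epithelial-like cells for *Col9a3* (88.8 CPM, 14.3%) and *Col9a1* (33.3 CPM, 6.91%). By a small margin in CPM, mitotic (22.4) and dermal fibroblast-like cells (22.3) were so for *Col9a1*, and mitotic cells (10.8) for *Col11a2*. Dermal fibroblast-like cells had 37.9 CPM of *Col11a1*, detected in 7.61% of cells, close to the epithelial-like values. In the distal library the perichondrial-like cluster (1437 cells, led by *Grp*, *Msx1*, *Npnt* and *Lhx9*) had *Col11a1* at 890 CPM, detected in 64.0% of cells, and held 24.5% of the library's *Col11a1* UMIs, while *Col2a1* was at 291 CPM and *Col11a2* at 18.2. These leading genes are not among the 8 perichondrial markers, and the name is uncertain. Mostly distal clusters with *Npnt* and *Grp* among their leading genes were also found in the joint clustering. One of 1408 cells at the finer resolution had 3 of 8 perichondrial markers. One of 1538 cells at the main resolution had 8 of 12 chondrocyte markers.

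**Figure D3:**
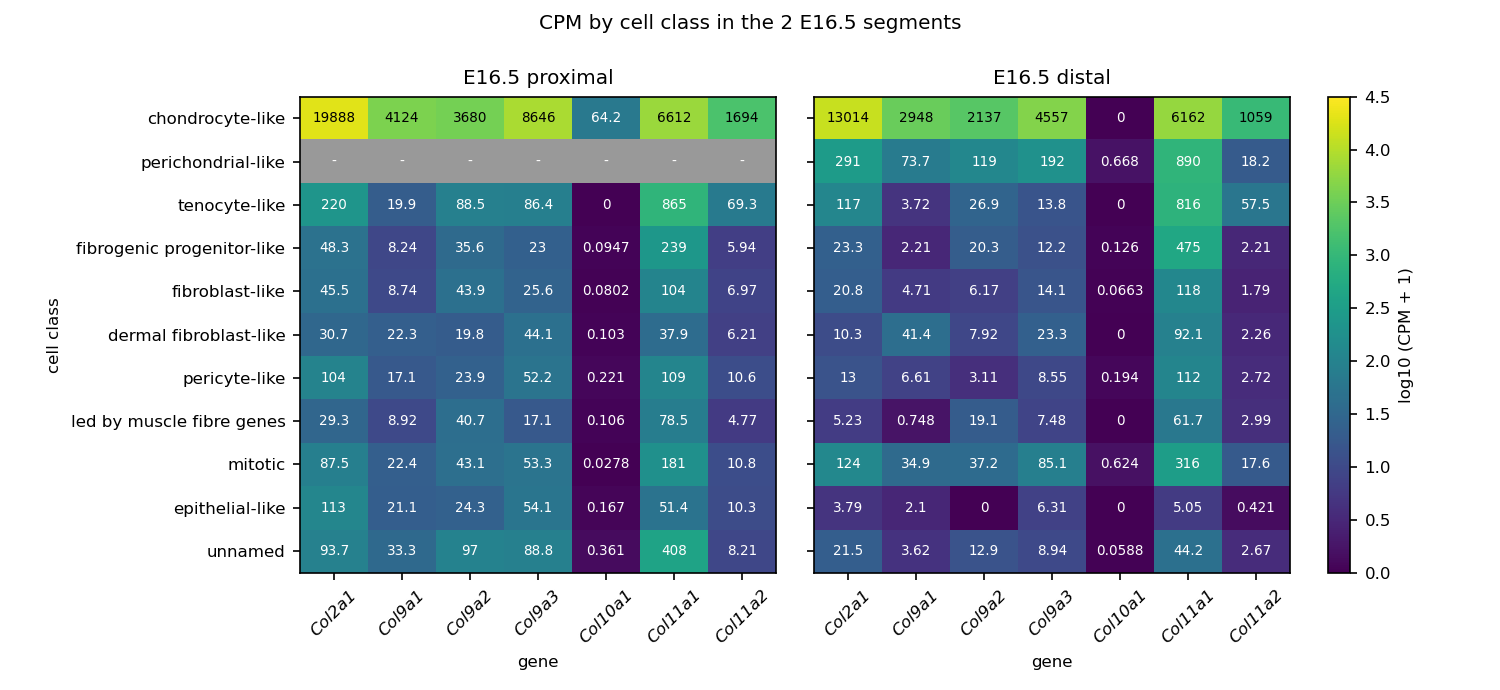
CPM by cell class in the E16.5 proximal and distal segments, clustered together, with colour on a log10 (CPM + 1) scale and the CPM printed in each field; a dash marks a class with under 50 cells in that library. The chondrocyte-like row is highest for each gene except *Col10a1* in the distal segment, which is at 0 there, and *Col11a1* is the gene with its next highest values, 890, 865 and 816 CPM, in other rows, namely distal perichondrial-like cells and tenocyte-like cells of both segments.

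The segments were then compared at E16.5. Over whole libraries 5 of the 6 members at 10 CPM or more were at least 2-fold lower in the distal segment (4.13% of 8509 genes were), and none was higher (4.9% of genes). *Col2a1* was 3.70-fold, *Col9a1* 3.16-fold, *Col9a2* 3.67-fold, *Col9a3* 4.13-fold and *Col11a2* 3.69-fold lower, and *Col11a1* 1.52-fold lower. *Col10a1*, below 10 CPM, was 27.8-fold lower, and without the proximal cell with 1172 UMIs the levels were 0.588 CPM proximally and 0.201 distally. The share of chondrocyte-like cells was 9.49% (8.95 to 10.0) of proximal and 2.84% (2.50 to 3.22) of distal cells when the segments were clustered alone, and 8.75% and 4.70% at the finer resolution of the joint clustering. At the main resolution of the joint clustering its direction rested on how 1 cluster was named. The shares were 9.43% of proximal and 0.379% of distal cells without a cluster that had 8 of the 12 chondrocyte markers raised and was left unnamed by a rule added after the clusters were seen. That cluster held 18.1% of distal and 0.0990% of proximal cells, so counting it would make the distal share the higher.

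Within chondrocyte-like cells the distances were smaller. *Col11a1* was 1.07-fold lower in the distal cells (6162 CPM against 6612), *Col9a1* 1.40-fold (2948 against 4124), *Col2a1* 1.53-fold (13014 against 19888), *Col11a2* 1.60-fold (1059 against 1694), *Col9a2* 1.72-fold (2137 against 3680) and *Col9a3* 1.90-fold (4557 against 8646). Their median depths were 17298.5 UMIs per cell in the proximal and 19447 in the distal segment. The class was made of different clusters in the segments. Most proximal cells were in a cluster of 882 cells led by *Matn1*, *Snorc*, *Scrg1* and *Epyc*, and most distal cells in a cluster of 188 cells, all distal, led by *Cytl1*, *Cmtm5* and *Prune2*, and the remaining cluster held 224 cells, 79.5% of them proximal, led by *Snorc*, *Matn3* and *Matn1*. *Col2a1* was at 21248 CPM in the first of these, 13904 in the second and 16360 in the last, and *Col11a1* at 7168, 6704 and 5168. Among cells with at least 3 chondrocyte markers *Col11a1* was 1.40-fold and *Col9a3* 2.80-fold lower distally, with the other 4 genes between. Of these cells, 859 of 1100 proximal and 239 of 449 distal ones had 6 or more markers.

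With all cells outside the chondrocyte-like clusters pooled, the order of the segments changed for some members. *Col9a2* (29.7 against 40.8 CPM) and *Col11a2* (9.08 against 11.2) remained lower in the distal cells. *Col11a1* was 1.68-fold higher in distal cells (294 against 175 CPM), *Col9a1* 1.49-fold higher (24.7 against 16.5) and *Col2a1* alike (72.6 against 74.2, ratio 0.978 with an interval of 0.954 to 1.00), where the proximal *Col2a1* and *Col9a1* levels lie under those of epithelial-like cells. The distal perichondrial-like class, with 1437 cells and almost no proximal counterpart, supplied 18630 of the 45334 *Col11a1* UMIs of the distal cells outside the chondrocyte-like clusters. It also supplied 6091 of 11196 *Col2a1* and 4017 of 7283 *Col9a3* UMIs there, and epithelial-like cells 4077 of the 15932 proximal *Col2a1* UMIs. In classes found in both segments *Col2a1* and *Col9a3* were lower distally except in mitotic cells. *Col9a1* was too, except in mitotic and dermal fibroblast-like cells. In tenocyte-like cells, which formed 1 cluster over both segments, *Col11a1* was at 865 CPM in 733 proximal and 816 in 400 distal cells (ratio 0.943, 0.914 to 0.973), and *Col11a2* at 69.3 and 57.5. *Col9a3* was lower in the distal tenocyte-like cells (13.8 against 86.4 CPM), as were *Col9a1* (3.72 against 19.9) and *Col2a1* (117 against 220). The epithelial-like level was also lower in the distal library, at 3.79 CPM of *Col2a1* and 6.31 of *Col9a3* in 66 cells, and its part in these differences was not tested. In fibrogenic progenitor-like cells *Col11a1* was at 475 CPM in the distal cells, most of them in a cluster led by *Grin2a* and *Dkk2*, and at 239 in the proximal cells, most of them in a cluster led by *Sfrp4* and *Prss12*. It was detected in 46.9% and 32.7% of them at 3000 UMIs.

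In dermal fibroblast-like cells *Col9a1* and *Col11a1* were higher distally and the other 4 genes lower. *Col9a1* was at 41.4 CPM in 1856 distal and 22.3 in 1169 proximal cells (ratio 1.85), and *Col11a1* at 92.1 and 37.9 (ratio 2.43). Different clusters made up the class in the segments, with most distal cells in a cluster led by *Kcna4* and *Sp9* and most proximal cells in one led by *Hs3st6*, *Hoxb9* and *Cldn10*. In the remaining cluster of the class, led by *Dpep1*, *C2* and *Cryab* (490 distal and 331 proximal cells), *Col11a1* was at 233 CPM distally and 59.5 proximally, and *Col9a1* at 20.2 and 14.6. The *Col9a1* level was 52.5 CPM in the distal cells of the *Kcna4* cluster, above the distal epithelial-like value of 2.10 CPM, while *Col2a1* was at 10.3 CPM in the distal dermal fibroblast-like cells as a whole.

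**Figure D4:**
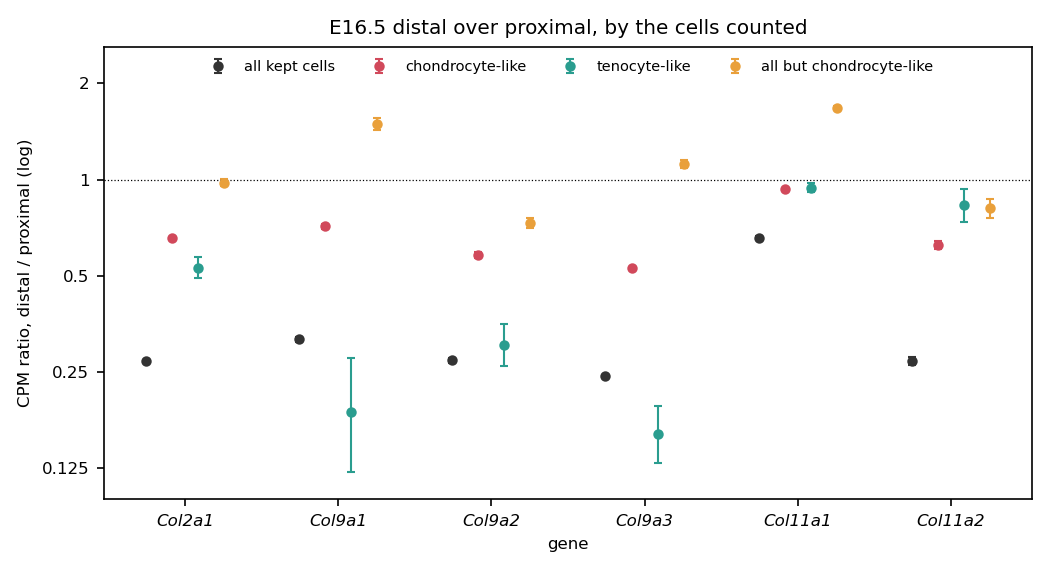
Ratio of distal to proximal CPM at E16.5 (log axis; 1 means equal) for 6 collagen genes in all kept cells, chondrocyte-like cells, tenocyte-like cells and all but chondrocyte-like cells, with 95% intervals for counting error only. In all kept cells each ratio is below 1, and in chondrocyte-like cells *Col11a1* is closest to 1. With the remaining cells pooled *Col9a1* (1.49), *Col9a3* (1.12) and *Col11a1* (1.68) are above 1. This pool holds a perichondrial-like class that is almost only distal.

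*Col10a1* was carried by very few cells. In the proximal library 30 cells had a *Col10a1* UMI and 3 had at least 3, with 1172, 108 and 3 UMIs. All 3 were chondrocyte-like and had 9, 10 and 10 of the 12 chondrocyte markers. The cell with 1172 UMIs held 89.5% of the library's *Col10a1*, and the library level without it was 0.588 CPM in place of 5.58. This cell had 36868 UMIs in all and was among the 5% of cells with the highest doublet scores.

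Of the 12 listed genes of hypertrophy, some had many UMIs in the first cell and others few or none. It held 411 of the library's 1300 UMIs of *Ibsp*, the gene of bone sialoprotein, 343 of 2177 of *Spp1* (osteopontin), 38 of 870 of *Alpl* (alkaline phosphatase) and 6 of 187 of *Ihh* (Indian hedgehog, made by prehypertrophic cells), with 1 UMI of *Sox9* and 1134 of *Col2a1*. It had 3 UMIs of *Runx2*, 1 of *Sp7* and 0 of *Mmp13*, *Phospho1* and *Dlx5*. The second cell, of 36813 UMIs, had 36 UMIs of *Ihh*, 85 of *Pth1r*, the receptor through which PTHrP delays hypertrophy, 55 of *Spp1*, 0 of *Ibsp*, 7 of *Sox9* and 1024 of *Col2a1*. The third cell had 42 UMIs of *Sox9*, 425 of *Matn1* and 0 of *Ihh*. In the 1048 proximal chondrocyte-like cells without a *Col10a1* UMI, *Spp1* was at 14.6 CPM, *Ihh* at 6.24, *Alpl* at 0.755 and *Ibsp* at 0.201.

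At E14.5, 24 of the 40 *Col10a1* UMIs (60%) were in 1 cell of the cluster led by *Pcp4* and *Otor*, which had 7 chondrocyte markers, 210 *Col2a1* UMIs, 9 of the library's 79 *Ihh* UMIs, and none of *Ibsp*, *Spp1* or *Alpl*. In the distal library the highest cell had 9 UMIs with no chondrocyte marker and no *Col2a1* UMI, and the next, a mitotic cell, had 4 and was among the highest doublet scores. The whole limb libraries had 1 and 2 *Col10a1* UMIs.

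Whether labelled cells differed from other limb mesenchyme at the first stage was tested at E11.5. The paper reports labelled cells at that stage mostly in the proximal limb, while the whole limb libraries held all positions. Lineage and position along the limb therefore cannot be told apart in this test. UMIs were summed over mesenchymal cells (3156 sorted, and 5079 and 5331 in whole limb replicates 1 and 2) and compared with the quasi-likelihood test of edgeR. The sorted library is a single one and was taken to vary like the whole limb libraries, and nothing in the labels says that these 2 came from separate animals, so that p-values measure the spread between these libraries. Of the 6 members tested, *Col2a1* and *Col9a2* were higher in sorted cells, where 26.8% of 15063 genes were, and *Col9a1* was lower, where 26.6% of genes were. Calls were thus common among all genes, and a call of a member is not unusual in itself.

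*Col2a1* was at 193 CPM in sorted cells against 65.2 and 70.6 in the whole limb replicates, a log2 difference of 1.32 ± 0.0895 (SE; edgeR, Benjamini-Hochberg adjusted p = 3.43e-47). *Col9a2* was at 67.1 CPM against 13.6 and 13.3, or 4.40-fold higher (log2 2.14 ± 0.124, edgeR adjusted p = 2.24e-64). *Col9a1* was at 48.8 CPM against 107 and 111, or 2.54-fold lower (log2 -1.34 ± 0.0992, edgeR adjusted p = 1.25e-39). Chains of the same collagen thus differed in opposite directions. *Col9a3* had 16.6 CPM against 13.3 and 13.1 (edgeR adjusted p = 0.365), *Col11a1* 59.9 against 46.1 and 47.8 (0.158), and *Col11a2* 2.11 against 1.39 and 1.48 (0.248), with log2 differences of 0.15 ± 0.136, 0.17 ± 0.105 and 0.37 ± 0.270. *Col10a1* was not tested.

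Clusters of sorted and of whole limb cells overlapped in *Col9a1*. In the joint clustering of the E11.5 libraries, sorted cells lay mainly in clusters of 1636, 1244 and 240 cells, in which *Col9a1* was at 48.6, 39.1 and 96.5 CPM and *Col9a2* at 92.8, 56.9 and 17.95. The whole limb clusters other than one led by the platelet genes *Pf4* and *Ppbp* ranged from 46.5 to 259 CPM of *Col9a1* in replicate 1 and from 45.8 to 254 in replicate 2. Both maxima were in a cluster led by *Sema3d*, *Matn4* and *Cnmd* (720 and 805 cells), which had the highest *Col9a2* as well, at 72.6 and 67.3 CPM, and *Col2a1* at 242 and 248. Myogenic-like cells of the whole limb had 52.6 and 59.7 CPM of *Col9a1*.

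**Figure D5:**
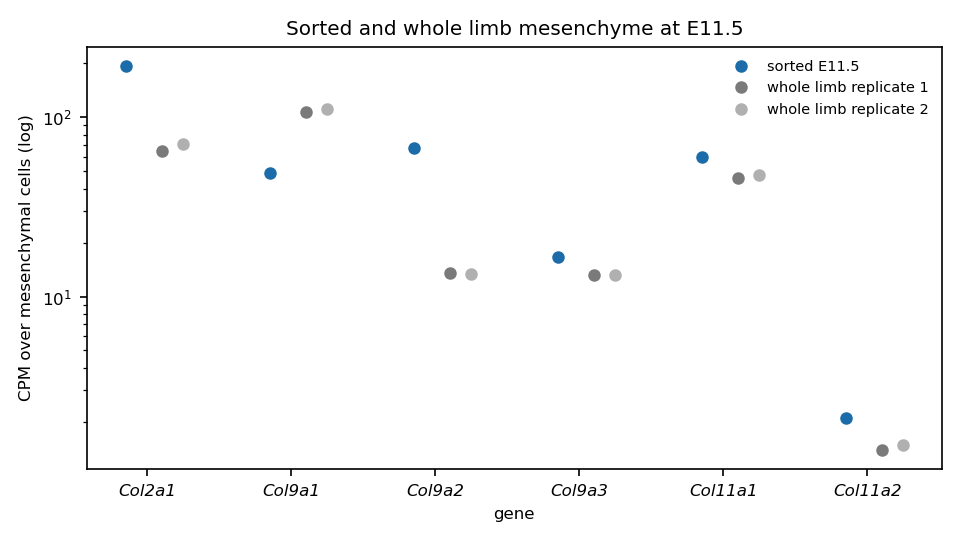
CPM of the 6 tested collagen genes in mesenchymal cells at E11.5, one point per library (log axis), for the sorted library and the 2 whole limb replicates. The replicates lie close together, *Col2a1* and *Col9a2* are higher and *Col9a1* is lower in the sorted library, and the points for *Col9a3* and *Col11a1* are near each other.

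Other cartilage genes did not share 1 direction at E11.5, where 26.8% of all genes were higher and 26.6% lower. Of 20 listed, 18 were tested, 10 were higher and 6 lower in sorted cells by edgeR, with a median log2 difference of 0.48 beside 0.01 over all genes. *Sox9*, the regulator of *Col2a1*, was higher by 0.29 (edgeR adjusted p = 0.0128) and *Sox6* by 0.68 (5.58e-08), and *Sox5* was lower by 0.39 on the log2 scale (0.000459). *Matn4* (1.31), *Epyc* (3.87) and the fibromodulin gene *Fmod* (4.76) were higher, and *Matn1* (-2.89) and *Hapln1* (-2.34) were lower. Of 12 genes of hypertrophy, 8 were tested, 0 were higher and 5 lower, among them *Dlx5* (-3.06) and *Runx2* (-1.58), which encode osteogenic transcription factors, with a median of -1.16. Of 30 genes that process collagen chains, 29 were tested, 16 were higher and 5 lower, with a median of 0.60. *Lox* (1.57) and *Loxl1* (1.40), whose products cross-link fibrils, were higher, while the chaperone gene *Serpinh1* was at 1134 CPM in sorted and 1068 and 1034 CPM in whole limb cells (edgeR adjusted p = 0.668).

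Over the stages, the cartilage list followed the collagens only in part. Between E12.5 and E13.5, 7 of its 12 genes at 10 CPM or more were 2-fold higher and none lower (1.58% and 1.79% of all genes). Between E13.5 and E14.5, 3 of 14 were higher and 6 lower (4.54% and 5.77%), and between E14.5 and E16.5 proximal 12 of 20 were higher and none lower (7.01% and 6.94%). *Matn1* was at 0.113, 38.1, 73.0 and 515 CPM from E12.5 to E16.5 proximal, and *Acan* at 2.15, 16.9, 22.0 and 126. *Sox9* was at 339 CPM at E11.5 and 272 at E13.5, against 124.9 at E14.5 and 124 in the proximal segment, a course unlike that of the collagens. In the distal segment 11 of the 20 genes were 2-fold lower than in the proximal segment and 0 higher (4.13% and 4.9% of all genes). Of the genes of collagen processing, at most 4 of the 25 to 26 at 10 CPM or more were 2-fold higher between neighbouring stages, the most between E11.5 and E12.5 (2.2% of all genes), and in the segment comparison 0 of 26 differed by 2-fold in either direction. From E11.5 to E16.5 proximal 17 of 27 were higher and 0 lower (13.3% and 30.3% of all genes).

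The proportions between chains of 1 collagen were compared across libraries, where only the change of a ratio can be read, since transcripts of different genes may be captured unequally. The ratio of *Col9a1* to *Col9a2* CPM was 0.728, 0.686 and 0.918 in the E11.5, E12.5 and E13.5 libraries, 0.578 at E14.5, and 1.04 and 1.21 in the proximal and distal segments, and it was 7.98 and 8.43 in the whole limb libraries. The ratio of *Col9a3* to *Col9a2* was 0.247, 0.303 and 0.962 in the first 3 libraries, 1.41 at E14.5, and 2.21 and 1.97 in the segments. The ratio of *Col11a1* to *Col11a2* was 28.5 (22.3 to 37.0), 39.5 and 14.99 in the first 3 libraries, 12.9 at E14.5, and 4.69 and 11.4 in the segments. In each of the last 2 ratios the values from E13.5 on lay on 1 side of the earlier sorted values.

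Detection of 4 or more members in 1 cell was more common at every later stage than at E11.5, while detection of 1 or more was so at E13.5 alone. At 3000 UMIs, at least 4 of the 7 genes were detected in 2.12%, 5.11% and 17.8% of cells of the E11.5, E12.5 and E13.5 libraries, in 7.79% at E14.5, in 10.4% and 5.14% in the segments, and in 2.09% and 1.94% of whole limb cells. Cells with no member detected made up 46.3%, 48.9% and 34.9% at E11.5, E12.5 and E13.5, 48.6% at E14.5, and 52.0% in the proximal and 58.6% in the distal segment. Exactly 6 were detected in 0.0316% of cells at E11.5 and in 7.95% (883 cells) at E16.5 proximal. Among cells with 1 member only, that member was *Col2a1* in 58.7% and *Col11a1* in 16.4% at E11.5, and *Col2a1* in 14.4% and *Col11a1* in 49.8% at E16.5 proximal. In the whole limb libraries it was *Col9a1* in 47.4% and 47.9% of such cells, against 8.99% in the sorted E11.5 library. *Col9a2* was detected in 29.2% of sorted E11.5 cells with a *Col2a1* UMI and in 9.86% of those without, and at E16.5 proximal in 58.9% and 8.85%.

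The genes most like each member were ranked over 37 groups of cells (a cluster in a library, with at least 50 cells, in the sorted libraries) by the Pearson correlation of log2(CPM + 1). The groups share libraries and depths, so the values are a description. *Col2a1* was most like *Fzd9* (r = 0.893), *Matn4* (0.877) and *Cnmd* (0.867), which encodes chondromodulin. *Col9a1* was most like *Scrg1* (0.886), *Rab11fip4* (0.876) and *Matn4* (0.862), *Col9a2* like *Cnmd* (0.906), *Scrg1* (0.903) and *Matn4* (0.898), and *Col9a3* like *Fzd9* (0.910), *Acan* (0.875) and *Mia* (0.874). *Col11a1* was most like *Fmod* (0.906) and *Pcolce2* (0.891), before *Acan* (0.867), and *Col11a2* like *Hapln1* (0.887), *Cytl1* (0.883) and *Chad* (0.880). For *Col10a1* the highest were *Mfi2* (0.953), *Msmp* (0.881) and *Kctd4* (0.861), all at 0 UMIs in the cell that held most of it. Among the members themselves, leaving out *Col10a1*, *Col2a1* with *Col9a2* had the highest correlation (0.935) and *Col9a1* with *Col11a1* the lowest (0.501), and the 2 collagen XI genes had 0.803.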

How the data were processed

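The authors aligned reads to a modified mm10 genome with the Cell Ranger count pipeline and deposited raw UMI counts per gene and barcode (headers name version 3.0.2 in 5 sorted libraries, 6.0.1 in the E16.5 distal library and none in the whole limb libraries). Members and gene lists were chosen with earlier results of these data known. Counts of kept cells were summed per library or class. Intervals are exact Poisson (CPM) or Clopper-Pearson (shares) at 95%. A count of 0 was given a limit of 3 UMIs in ratios.

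Clusters came from Scanpy 1.11.5 (Python 3.11.15, SciPy 1.17.1, leidenalg 0.10.2) with 2000 variable genes, 50 principal components, 25 neighbours and resolution 1. A cluster was named for the cell type with the highest share of markers past a log2 fold of 1 and 10% detection. Rules added after the clusters were seen required at least 2 chondrocyte markers among the top 10 genes of a chondrocyte-like cluster and at least 3 fibre genes for clusters led by muscle fibre genes, and called a cluster with at least 3 epithelial markers among them epithelial-like. The first kept a distal cluster of 1538 cells (18.1% of distal and 0.0990% of proximal cells in the joint clustering) unnamed. Scrublet called at most 0.0948% of cells of a library, so no doublets were removed, and scores were used in an alternative.

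The E11.5 test was the edgeR 4.0.16 quasi-likelihood test (R 4.3.3, TMM, filterByExpr, Benjamini-Hochberg at 0.05, 1 residual degree of freedom). Whole limb replicates differed beyond sampling noise (chi-square per gene 14.97 over 15315 genes). On simulated counts of this comparison, 200 of 15063 genes were changed 2-fold or 4-fold, of which 69% were recovered at 2-fold and 89% at 4-fold, with 6 calls among unchanged genes. All simulated libraries had the same dispersion (0.00644). These numbers therefore cannot show whether the lone sorted library varies like the whole limb libraries. Alternatives used DESeq2 1.42.0, limma-voom (limma 3.58.1), other filters, scalings, clusterings and limits. Named genes are the 7 members, the 3 non-member genes most like each by correlation (units of at least 50 cells, genes reaching 50 CPM) and examples from the fixed lists. *Cnmd* and *Snorc* were matched by identifier. Figures used matplotlib 3.10.9.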

Additional observations from a re-analysis of the deposited data

How the results depend on the processing

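Of 66 counts of genes or members recomputed under alternatives, 57 stayed within 1.5 times the value above. With a fold of 1.5 in place of 2, 2 members (*Col9a1* and *Col9a2*) were lower at E14.5 than at E13.5 (share of all genes at that fold not given). In cells with at least 3 chondrocyte markers, chosen after the data were seen, 0 were, and the log2 ratios of that step changed sign for *Col9a1* (0.0779), *Col9a2* (0.54) and *Col9a3* (1.20); with at least 5000 UMIs per cell that of *Col9a3* was 0.0101. Within chondrocyte-like clusters only, 1 member was 2-fold lower distally, *Col10a1*, for which 1 proximal cell holds 1172 UMIs (share of all genes in these cells not given). Without those clusters, also chosen after seeing the data, 0 were, and the distal to proximal log2 ratios turned to 0.58 for *Col9a1*, 0.16 for *Col9a3*, 0.89 for *Col10a1* and 0.74 for *Col11a1*. Of 276 log2 ratios between sorted libraries, 151 moved by less than counting error, 117 by more, and the 8 named here changed sign. Of 21 first stages 14 moved, and of 70 shares of UMIs in chondrocyte-like cells 60 moved beyond their interval, most of all in the distal segment, where the class depends on the clustering.

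At E11.5, DESeq2 called 2029 genes higher, and no filter gave 1969 higher and 2151 lower. Scaling to library totals gave 2500 lower genes and 4 members higher (*Col9a3* edgeR adjusted p = 0.0394, *Col11a1* 0.00384). The share of all genes called higher under that scaling is not given, so this count of members has no background. With all kept cells *Col11a1* had an edgeR adjusted p of 0.0339. The calls of *Col2a1*, *Col9a1* and *Col9a2* held in each of these tests. Leaving out 1 whole limb replicate leaves no residual degrees of freedom, so there is no test. The log2 differences were then 1.26 to 1.40 for *Col2a1*, -1.38 to -1.30 for *Col9a1* and 2.14 to 2.15 for *Col9a2*. No paired analysis was possible because the groups compared share fewer than 2 replicate numbers. The removal of called doublets was not run, since almost none were called, and leaving out the 5% of cells with the highest scores took its place. Few UMIs lie behind *Col11a2* at E11.5 (66 in the cells tested) and behind *Col10a1* in every library but the proximal one (at most 40).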
